A study of Mus musculus with 5 samples.

Results

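Inhibitory receptors are surface proteins that hold back a T cell after it has met its antigen, and checkpoint ligands are the surface proteins that engage them. The 9 genes described here are the receptor genes Ctla4, Pdcd1, Lag3, Havcr2, Tigit, Btla and Cd160 and the ligand genes Cd200 and Cd274. They were chosen by name, with no threshold on their values, out of 21366 genes with a value on every array. Earlier results of these data were known when they were chosen. Each of the 9 was read by 1 probe with 1 spot, found through its RefSeq accession.

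All cultures began with naive CD4 T cells from the spleen of C57BL/6 mice, and each of the 5 culture conditions was read on 1 Agilent 1-colour array. Th1reg cells had spent 12 days in culture: 4 days as Th1 cells, 4 days at rest, then 4 days in the iTreg medium. That medium holds TGF-b and IL-2, antibodies that stimulate CD3 and CD28, and blocking antibodies to IFNg and IL-4. Th1+TGFb cells had gone from 4 days as Th1 cells straight into that medium for 4 days, 8 days in all. Rested cells had followed their 4 Th1 days with 4 days in IL-2 and the antibodies to IFN-g and IL-4, for which the labels name no anti-CD3/CD28, also 8 days in all. iTreg cells were naive cells kept for 4 days in the iTreg medium. Th1 cells were naive cells kept for 4 days with IL-12 and IL-2, the CD3 and CD28 antibodies and an antibody to IL-4. The labels name no genetic change and give neither the age nor the number of the mice. These are cultured cells, and none of the groups is a T cell population taken directly from an animal.

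With 1 array per culture there were no replicates, so no test or spread between cultures could be had. Every difference below is between single arrays, and the comparisons share arrays, so they are not independent of each other. Values are scaled log2 signals: log2 of the spot's processed signal minus log2 of the array's 75th percentile, so that 0 is the 75th percentile and 1 unit is 2-fold. The only error is that of the scanner software's error model, which covers the spot itself. Its SD was 0.14 to 0.31 for values well above background, and about 0.20 for a difference between bright spots. A difference of at least 2-fold was counted as higher or lower. Where a signal was not well above background, it was set to the higher of itself and the array's lowest signal well above background. A difference that used that lowest signal is written as at least N-fold. It is a bound on this scale only, and other processing can give less. A probe's signal depends on its sequence, so each gene is compared with itself between cultures and never with another gene. Between 45.7% and 48.7% of an array's spots were well above background.

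All 9 CD4 T cell markers (Cd3d, Cd3e, Cd3g, Cd4, Cd2, Cd5, Lck, Lat and Cd28) were well above background on all 5 arrays. The B cell genes Cd79a and Pax5, the myeloid and dendritic genes Lyz2, S100a8, S100a9 and Flt3, the NK genes Ncr1 and Klrb1c, the platelet genes Ppbp and Pf4 and the endothelial gene Cdh5 did not pass that limit in any culture. Other genes of the same lists did pass it. Cd22 and Cr2 of the B cell list, Cd8b1 of the CD8 T and NK list and Itgam, Siglech and Csf1r of the myeloid and dendritic list passed on all 5 arrays. Siglech stood at 7.61 in Th1reg, 8.90 in Th1+TGFb, 9.45 in rested, 8.71 in iTreg and 8.01 in Th1, and Itgam was likewise lowest in Th1reg and highest in rested (8.84). Ms4a1, Cd79b, Klra8, Klrk1, Itgax and Adgre1 passed on some arrays, and Cd8a in iTreg alone (-0.29). Col1a1 of the endothelial and stromal list passed in every culture but Th1reg. Hba-a1 of the erythroid and platelet list passed in iTreg alone (-2.04). In cultured cells measured as a bulk, fewer cells that express a gene and less RNA per cell cannot be told apart.

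As background, CTLA-4 competes with the costimulatory receptor CD28 for CD80 and CD86, while PD-1, encoded by Pdcd1, recruits phosphatases such as SHP-2 to the activated receptor complex after binding PD-L1 or PD-L2. LAG-3 binds MHC class II, TIM-3 (Havcr2) has several proposed ligands including galectin-9, TIGIT competes with CD226 for CD155, and BTLA and CD160 share the ligand HVEM. Most of these genes are switched on by antigen receptor signals. Several are high on regulatory T cells, and Th1 cells are the CD4 cells best known for TIM-3.

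The DNA just upstream of these genes is where factors induced by the antigen receptor can bind. The windows printed here, 250 bases that end at the gene's start and are written 5′ to 3′ on the gene's own strand, come from RefSeq promoters of build GRCm38.p6. The table held 8 of the 9 genes (Lag3 had no entry). The windows of Pdcd1 (chr1:94052554-94052803, minus strand), Tigit (chr16:43664185-43664434, minus strand), Cd274 (chr19:29367188-29367437, plus strand) and Cd200 (chr16:45409054-45409303, minus strand) are shown because these 4 genes moved together, up by over 2-fold in Th1reg against rested cells. That of Havcr2 (chr11:46454681-46454930, plus strand) is shown for its different pattern. Capitals mark matches, on either strand, to the NFAT core (GGAAA, or TTTCC on the other strand) and to the AP-1 site (TGANTCA).
Pdcd1: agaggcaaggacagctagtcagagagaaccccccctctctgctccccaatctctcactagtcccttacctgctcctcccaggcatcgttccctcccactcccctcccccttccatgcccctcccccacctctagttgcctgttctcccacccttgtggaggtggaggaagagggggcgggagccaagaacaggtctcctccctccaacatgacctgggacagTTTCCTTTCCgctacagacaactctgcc
Tigit: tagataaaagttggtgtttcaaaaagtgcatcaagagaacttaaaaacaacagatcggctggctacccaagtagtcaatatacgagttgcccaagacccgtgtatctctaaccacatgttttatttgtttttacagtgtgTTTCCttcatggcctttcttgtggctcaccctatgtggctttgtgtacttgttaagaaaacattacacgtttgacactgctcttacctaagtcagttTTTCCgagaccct
Cd274: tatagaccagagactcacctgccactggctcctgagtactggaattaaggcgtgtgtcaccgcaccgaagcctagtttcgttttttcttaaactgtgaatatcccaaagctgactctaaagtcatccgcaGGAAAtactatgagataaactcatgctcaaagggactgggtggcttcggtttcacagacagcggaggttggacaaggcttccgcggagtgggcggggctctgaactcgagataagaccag
Cd200: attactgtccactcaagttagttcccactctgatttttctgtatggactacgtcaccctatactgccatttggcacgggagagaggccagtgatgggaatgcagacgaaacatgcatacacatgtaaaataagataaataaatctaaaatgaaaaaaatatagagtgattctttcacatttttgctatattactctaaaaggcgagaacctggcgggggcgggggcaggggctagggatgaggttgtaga
Havcr2: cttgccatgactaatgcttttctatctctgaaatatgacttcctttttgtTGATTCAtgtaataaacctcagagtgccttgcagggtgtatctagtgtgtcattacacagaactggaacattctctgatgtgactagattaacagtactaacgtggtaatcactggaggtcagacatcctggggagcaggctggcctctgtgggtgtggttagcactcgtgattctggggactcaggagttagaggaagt
Pdcd1 had a pair of NFAT cores side by side, whose first bases lay at -28 and -23 from the start, and Tigit had cores at -110 and -13. Cd274 had 1 core at -120, and Ctla4, not printed, had 1 at -144. Cd160 has 2 windows in the table, and 1 of them held a core. Cd200, Btla and Havcr2 held none in these 250 bases. The NFAT core was thus present in 5 of the 9 windows of these 8 genes, against 55.6% of all 32851 windows. Havcr2 was the only one of the 8 with an AP-1 match (at -200; 6.75% of all windows). Havcr2 and Cd160 held the T-box core (GGTGTG; 16.3% of all windows), and Cd160 also held the STAT-type site TTCNNNGAA (7.02% of all windows). A match is a stretch of letters, not a measured binding site.

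In all 5 cultures, 7 of the 9 genes gave a signal well above background, and no 2 of these had the same order of cultures. Pdcd1, Lag3, Cd200 and Cd274 were lowest in rested cells, Ctla4 and Btla in iTreg and Cd160 in Th1reg. The exceptions were Havcr2, measured in 2 cultures, and Tigit, measured in 4. The span from highest to lowest culture was 66.6-fold for Lag3, 28.4-fold for Cd200, 6.13-fold for Cd160, 4.47-fold for Pdcd1, 4.45-fold for Ctla4, 4.42-fold for Cd274 and 1.90-fold for Btla. Ranking each gene's measured cultures gave 32 pairs of neighbours, of which 16 lay more than 2 error-model SDs apart.

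**Figure D1:**
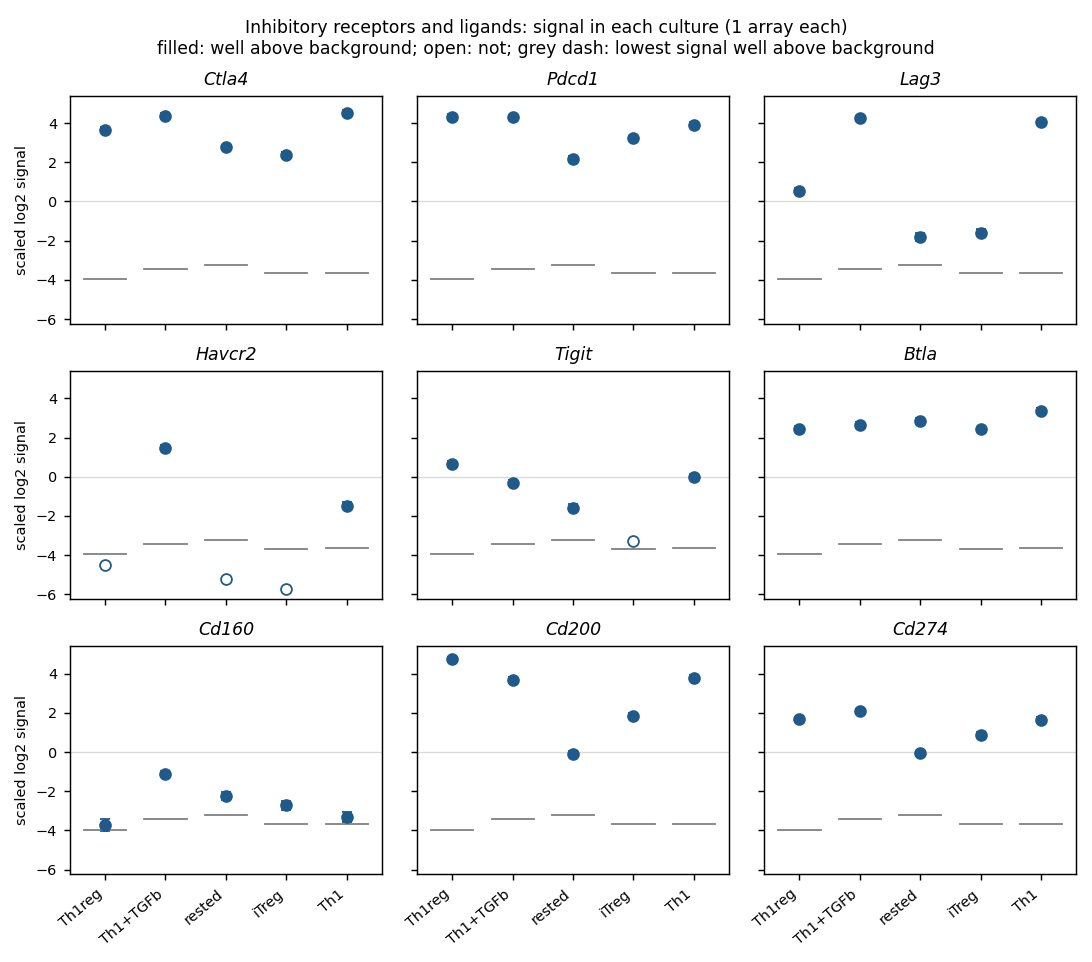
Scaled log2 signal (y axis) of each of the 9 genes in the 5 cultures (x axis), 1 array each. Filled circles are well above background, open circles are not, grey dashes mark the array's lowest signal well above background, and error bars (error-model SD) are mostly smaller than the circles. Lag3, Cd200 and Havcr2 show the wide steps between cultures, Btla the narrowest (1.90-fold), and Cd160 lies close to the grey dashes.

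Ctla4 stood at 3.66 in Th1reg, 4.37 in Th1+TGFb, 2.76 in rested, 2.36 in iTreg and 4.51 in Th1. Th1+TGFb and Th1 were highest and differed by 0.14 log2 units, less than the error-model SD of 0.20. Rested and iTreg were lowest and lay 0.40 apart. Against Th1, Ctla4 was 4.45-fold lower in iTreg and 3.38-fold lower in rested cells. It was 2.47-fold higher in Th1reg than in iTreg, while Th1reg minus rested was 0.91, under 2-fold, 0.32 with normexp background correction and quantile normalization, and 2.36 with the array's spike-in controls, RNAs added in known amounts, as the scale.

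Pdcd1 stood at 4.31 in Th1reg, 4.29 in Th1+TGFb, 2.15 in rested, 3.22 in iTreg and 3.90 in Th1. The 3 highest cultures lay within 0.41 log2 units, and Th1reg and Th1+TGFb could not be told apart (0.03, SD 0.20). Rested cells were lowest, 3.37-fold lower than Th1. In Th1reg, Pdcd1 was 4.47-fold higher than in rested cells and 2.13-fold higher than in iTreg.

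Lag3 stood at 0.55 in Th1reg, 4.24 in Th1+TGFb, -1.82 in rested, -1.59 in iTreg and 4.03 in Th1. LAG-3 is related in structure to CD4 and binds the same MHC class II molecules. Th1+TGFb and Th1 shared the top (0.21 apart, SD 0.20), rested and iTreg shared the bottom (0.23 apart, SD 0.28), and Th1reg lay between the pairs, more than 2 log2 units from either. Lag3 was 57.8-fold lower in rested than in Th1, where 29 of 13228 genes tested were as far down. It was 49.2-fold lower in iTreg than in Th1 (45 of 13151 genes as far). In Th1reg it was 5.18-fold higher than in rested, 4.41-fold higher than in iTreg, 12.9-fold lower than in Th1+TGFb and 11.1-fold lower than in Th1. The rested and iTreg spots of Lag3 were weak, with processed signals of 40.9 and 90.1. With normexp and quantile normalization the log2 differences from Th1 were smaller, -4.61 in rested and -4.32 in iTreg. Th1reg minus rested was then 1.71 and Th1reg minus iTreg 1.41.

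Havcr2 encodes TIM-3, a receptor first described on Th1 cells. It stood at 1.45 in Th1+TGFb and -1.47 in Th1, and was not well above background in Th1reg (own value -4.53), rested (-5.22) or iTreg (-5.72). Th1+TGFb thus stood 7.60-fold over Th1, where 110 of 13057 genes tested were as far up. Against Th1+TGFb, Havcr2 was at least 42.7-fold lower in Th1reg (27 of 13213 genes as far down). Against Th1 it was at least 5.61-fold lower in Th1reg, at least 3.37-fold lower in rested and at least 4.58-fold lower in iTreg. With normexp and quantile normalization these log2 differences were smaller, -3.02 in Th1reg against Th1+TGFb, -1.29 in rested against Th1, -1.10 in iTreg against Th1 and, under 2-fold, -0.92 in Th1reg against Th1. No fold could be had between Th1reg, rested and iTreg.

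Tigit stood at 0.65 in Th1reg, -0.34 in Th1+TGFb, -1.58 in rested and 0.00 in Th1, and was not well above background in iTreg (own value -3.30). TIGIT is common on regulatory and chronically stimulated T cells. The highest value was that of Th1reg, 0.65 log2 units above Th1 (SD 0.21), while Th1 and Th1+TGFb lay 0.34 apart. In Th1reg, Tigit was 4.68-fold higher than in rested and 15.4-fold higher than in iTreg. Against Th1, it was 9.83-fold lower in iTreg and 2.97-fold lower in rested. Both iTreg folds used the spot's own dim value, a processed signal of 27.5 with an error-model SD of 0.33, and are not bounds. With normexp and quantile normalization both iTreg differences were smaller, 2.17 log2 units for Th1reg minus iTreg and -1.72 for iTreg minus Th1.

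Btla stood at 2.45 in Th1reg, 2.63 in Th1+TGFb, 2.85 in rested, 2.41 in iTreg and 3.34 in Th1. Under the 75th-percentile scale no comparison reached 2-fold, the widest being iTreg minus Th1 (-0.93) and Th1reg minus Th1 (-0.89). Apart from Th1, its neighbours in the order lay 0.03 to 0.22 apart, no more than about 1 error-model SD. Its position in rested cells depended on the scaling. With spike-in scaling Btla was lower in rested than in Th1 (-1.63), higher in Th1reg than in rested (1.05) and lower in Th1+TGFb than in Th1 (-1.05).

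Cd160 encodes a receptor anchored in the membrane by a lipid, best known from NK and CD8 T cells. It stood at -3.73 in Th1reg, -1.11 in Th1+TGFb, -2.23 in rested, -2.73 in iTreg and -3.32 in Th1. Th1+TGFb was highest, 4.61-fold over Th1 (249 of 13057 genes as far up). Th1reg was 6.13-fold lower than Th1+TGFb. Rested cells were 2.13-fold higher than Th1, and Th1reg was 2.83-fold lower than rested. These are weak spots, with processed signals of 23.1 in Th1reg, 91.8 in Th1+TGFb, 30.8 in rested, 40.8 in iTreg and 24.0 in Th1, and the SD of a difference was 0.26 to 0.41. With spike-in scaling rested minus Th1 turned to -0.05 and Th1reg minus rested became -0.04. With normexp background correction and quantile normalization, which pull weak signals together, Th1+TGFb minus Th1 was 0.92 and Th1reg minus Th1+TGFb was -0.92, both under 2-fold. Rested minus Th1 was then 0.24 and Th1reg minus rested -0.24.

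The ligand gene Cd200 stood at 4.73 in Th1reg, 3.66 in Th1+TGFb, -0.10 in rested, 1.85 in iTreg and 3.76 in Th1. CD200 quiets myeloid and other cells that carry its receptor. Th1reg was highest and rested lowest, with processed signals of 8110 in Th1reg and 134 in rested, and Th1+TGFb and Th1 lay 0.10 apart (SD 0.20). Cd200 was 28.4-fold higher in Th1reg than in rested, where 61 of 13331 genes tested were as far up. It was 14.5-fold lower in rested than in Th1 (166 of 13228 genes as far down) and 3.77-fold lower in iTreg than in Th1. Th1reg stood 7.37-fold over iTreg, 2.09-fold over Th1+TGFb and 0.97 log2 units over Th1.

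Cd274 encodes PD-L1, the ligand of PD-1. It stood at 1.67 in Th1reg, 2.07 in Th1+TGFb, -0.07 in rested, 0.89 in iTreg and 1.62 in Th1. Rested cells were lowest, 3.23-fold lower than Th1, and Th1reg was 3.34-fold higher than rested. Th1reg and Th1 lay 0.05 apart (SD 0.20), and iTreg minus Th1 was -0.73, under 2-fold.

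Against Th1 cells, rested cells had 7 of the 9 genes lower (all but Btla and Cd160) and 1 higher (Cd160). Over all genes, 26.6% were lower and 17.5% higher in this comparison, 44.1% either way. The median of the 9 differences was -1.75, against -0.29 for all genes. The 7 genes were lower under every scaling tried, with Lag3 between -7.00 and -4.61 log2 units over the alternatives. The T cell activation list of 12 genes moved alongside, with 9 lower, none higher and a median of -3.13. In that list the early response genes Nr4a1 and Egr1 were 155-fold and at least 127-fold lower, and the proliferation gene Mki67 was 9.87-fold lower. Rested cells had 8 days in culture and Th1 cells 4. For the rest the labels name neither the anti-CD3/CD28 nor the IL-12 of the Th1 step, but they name an antibody to IFN-g. These differences between the cultures cannot be told apart. The B cell list summed to a scaled linear signal of 5.70 in rested and 1.33 in Th1, and the myeloid and dendritic list to 1158 in rested and 350 in Th1. The part of these lists in the result was not tested.

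When rested cells went into the iTreg medium and became Th1reg cells, 5 of the 8 genes measured were higher (Pdcd1, Lag3, Tigit, Cd200 and Cd274) and 1 was lower (Cd160), while 27.6% of all genes were higher and 20.0% lower (47.6% either way). The median difference was 1.95, against 0.29 for all genes. The 5 genes were higher under every scaling, Cd200 by 4.04 to 6.29 log2 units over the alternatives. In the same comparison 10 of 12 activation genes were higher and 1 lower (median 3.50), with Nr4a1 233-fold and Mki67 11.6-fold higher. The labels name anti-CD3/CD28 for the iTreg medium but not for the rest. Besides these antibodies, TGF-b is the only component of the medium that the labels do not name for the rest. Renewed stimulation thus cannot be told apart from TGF-b or from the added time in culture, 12 days against 8. The B cell list summed to a scaled linear signal of 1.11 in Th1reg and 5.70 in rested, and the myeloid and dendritic list to 244 in Th1reg and 1158 in rested, nearly all of it from Itgam and Siglech. The part of these lists in the result was not tested. With spike-in scaling Ctla4 and Btla were also higher and Cd160 was under 2-fold, 7 higher and 0 lower in all. Over all genes, that scale had 9508 of 13331 higher and 737 lower.

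When Th1 cells went into the same medium with no rest between, 2 of the 9 genes were higher (Havcr2 and Cd160) and none was lower, against 11.3% and 7.76% of all genes. The other 7 lay between -0.71 (Btla) and 0.45 (Cd274) log2 units. The median was 0.21, against -0.20 for all genes, and turned to -0.13 with spike-in scaling, under which 2 were higher and 1 was lower (Btla). Over all genes, that scale had 924 of 13057 higher and 2595 lower. The CD8 T and NK list moved in the same direction, summing to a scaled linear signal of 8.01 in Th1+TGFb and 2.33 in Th1, with 3 of its 6 genes well above background in each. Klra8 and Klrk1, genes of NK receptors, carried most of it, while Cd8a, Ncr1 and Klrb1c were not well above background in either culture. The B cell list had 3 of 3 genes higher and summed to 3.06 in Th1+TGFb and 1.33 in Th1, and the myeloid and dendritic list had 1 of 4 higher and summed to 728 in Th1+TGFb and 350 in Th1. The part of these lists in the result was not tested. The activation list had 3 of 12 genes higher and 5 lower (median 0.01). Th1+TGFb cells had 8 days in culture and Th1 cells 4, and the labels name IL-12 for the Th1 step but not for the iTreg medium. Time in culture and the components of the media cannot be told apart.

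**Figure D2:**
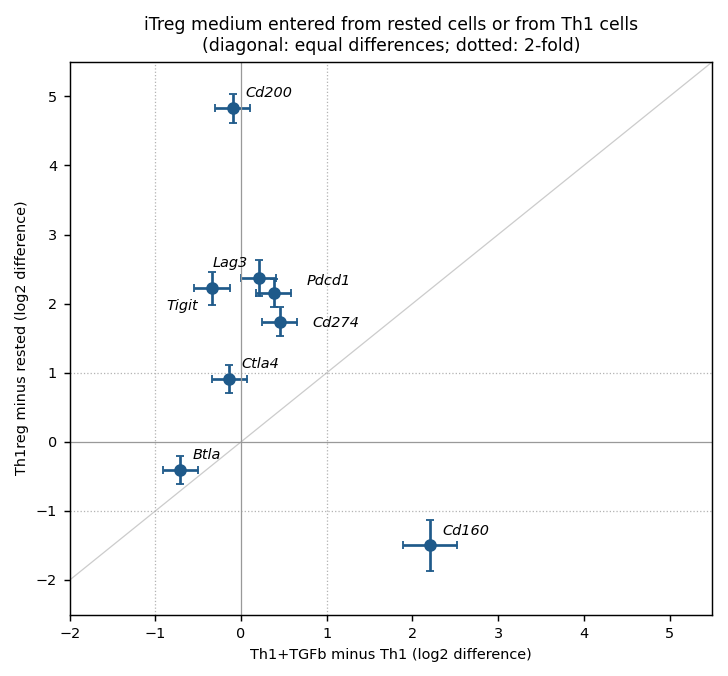
Log2 difference on entering the iTreg medium from Th1 cells (x axis, Th1+TGFb minus Th1) against that from rested cells (y axis, Th1reg minus rested), 1 point per gene with error-model SDs. Dotted lines mark 2-fold and the diagonal equal differences. Cd200 lies at -0.10 and 4.83, Cd160 at 2.21 and -1.50. Havcr2 is left out, being dim in both Th1reg and rested cells. The starting cultures differ, since the labels name anti-CD3/CD28 for Th1 cells and none for rested cells. The activation list had a median of 0.01 on the x axis, with 3 of 12 genes higher and 5 lower. On the y axis its median was 3.50, with 10 higher and 1 lower. On the y axis renewed stimulation cannot be told apart from the medium's TGF-b or from the added time in culture.

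The 2 routes through the iTreg medium ended in different levels. In Th1reg against Th1+TGFb, 1 of 9 genes was higher (Cd200, 2.09-fold) and 3 were lower (Havcr2, Lag3 and Cd160), against 12.3% and 15.1% of all genes. Ctla4 (-0.71), Pdcd1 (0.03), Btla (-0.18), Cd274 (-0.40) and Tigit (0.99) were under 2-fold apart. The median was -0.40, against 0.20 for all genes, and became 0.25 with spike-in scaling. Lag3 and Havcr2 were lower under every scaling. Cd200 was under 2-fold with the 75th percentile or the median over detected probes (those well above background on all arrays) as the scale (0.84 and 0.89) and with normexp and quantile normalization (0.83), and at 1.71 with spike-in scaling. Tigit reached 2-fold with spike-in scaling (1.64) and in the deposited value table (1.03). The CD8 T and NK list summed to 1.94 in Th1reg and 8.01 in Th1+TGFb (2 of 3 genes lower), the B cell list to 1.11 in Th1reg and 3.06 in Th1+TGFb (3 of 4 lower, 1 higher), and the myeloid and dendritic list to 244 in Th1reg and 728 in Th1+TGFb (2 of 4 lower). The activation list had 3 of 12 genes higher and 1 lower (median 0.67). The part of these lists was not tested. The cultures also differ in total time, 12 days in Th1reg and 8 days in Th1+TGFb, which cannot be told apart from the route.

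Against Th1 cells, iTreg cells had 5 of 9 genes lower (Ctla4, Lag3, Havcr2, Tigit and Cd200) and none higher, while 17.7% of all genes were lower and 10.8% higher. The median was -1.91, against -0.24 for all genes. The same 5 genes were lower under all 7 other ways of processing at the 2-fold threshold. The activation list had 1 gene higher and 2 lower here (median 0.01). The CD4 T cell marker list was lower in iTreg too: its scaled linear signals summed to 933 in iTreg and 2033 in Th1, and 6 of its 9 genes were at least 2-fold lower. Of the 4 CD8 T and NK genes that could be compared, Cd8a was higher in iTreg, Klra8 and Klrk1 were lower, being dim there, and Cd8b1 was measured in both cultures, and the list summed to 1.39 in iTreg and 2.33 in Th1. The B cell list had 2 of 4 genes higher and summed to 2.63 in iTreg and 1.33 in Th1. The myeloid and dendritic list summed to 515 in iTreg and 350 in Th1 (1 of 3 lower). The part of these lists in the result was not tested.

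Set against iTreg cells, which had ended in the same medium, Th1reg cells had 5 of 8 genes higher (Tigit, Cd200, Lag3, Ctla4 and Pdcd1) and none lower, against 15.7% and 12.1% of all genes (27.8% either way), with a median of 1.20 against 0.28. Cd160 just missed the threshold at -0.999 and passed it with the 75th percentile or the median over detected probes as the scale (-1.36 and -1.14). Ctla4 (0.94) and Pdcd1 (0.73) were below 2-fold with that percentile, Pdcd1 also with that median (0.96), and with normexp and quantile normalization (0.95 and 0.71). The CD4 T cell list had 3 of 9 genes higher and none lower, a median of 0.91 and sums of 1526 in Th1reg and 933 in iTreg, while the B cell list had 3 of 4 lower and summed to 1.11 in Th1reg and 2.63 in iTreg. The myeloid and dendritic list had 1 of 3 lower and summed to 244 in Th1reg and 515 in iTreg. In the CD8 T and NK list 2 of 4 were higher and 2 lower. The activation list had 4 of 12 higher and 1 lower (median 0.33). The part of these lists was not tested. Th1reg cells had 12 days in culture, with an earlier stimulated Th1 step, and iTreg cells 4 days. Neither can be told apart from the cells' origin. Against the Th1 culture they began as, Th1reg cells had 2 of 9 genes lower (Lag3 and Havcr2) and none higher, against 8.55% and 6.23% of all genes, with a median of -0.41 against 0.01 (0.0044 for the 9 genes with normexp and quantile normalization). Ctla4 (-0.85), Btla (-0.89) and Cd200 (0.97) came close to 2-fold.

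Pdcd1lg2 encodes PD-L2, the other ligand of PD-1. It stood at 4.12 in Th1reg, 3.26 in Th1+TGFb, -1.77 in rested, 1.22 in iTreg and 3.29 in Th1. Like Cd274 it was lowest in rested cells, 33.2-fold lower than in Th1, and it was 59.4-fold higher in Th1reg than in rested. Of the other ligands and partners, 14 of 15 listed genes had a probe (Ceacam1 had none). Nectin3 and Fgl1 were too dim on every array to be measured. In rested against Th1, 4 of 12 were higher and 2 lower, and in Th1reg against rested 2 were higher and 5 lower. Of all genes, 17.5% were higher and 26.6% lower in the first comparison, and 27.6% higher and 20.0% lower in the second. With spike-in scaling the counts of the list became 0 higher and 6 lower, and 5 higher and 0 lower. Over all genes, that scale had 619 of 13228 higher and 8555 lower in rested against Th1. In Th1reg against rested it had 9508 of 13331 higher and 737 lower.

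Partners of the individual receptors showed no common order. The CTLA-4 ligand genes were both higher in rested than in Th1, Cd80 2.73-fold and Cd86 at least 4.41-fold, but with spike-in scaling neither reached 2-fold (0.30 and 0.998 log2 units). H2-Ab1, an MHC class II gene of the kind LAG-3 binds, was 59.6-fold lower in iTreg than in Th1, a comparison in which Lag3 was 49.2-fold lower. The other class II gene listed, H2-Aa, was not well above background in iTreg (own value -5.69), Th1 (-5.68) or Th1reg (-5.19). It was measured at -1.47 in Th1+TGFb and -2.60 in rested. Tnfrsf14, encoding the HVEM that BTLA and CD160 share, stood at -1.32 in Th1reg, -0.02 in Th1+TGFb, 0.08 in rested, -1.08 in iTreg and -0.61 in Th1. Lgals9 (galectin-9) stayed between 2.17 in Th1 and 2.66 in Th1reg, and Pvr (CD155) between 0.71 in Th1reg and 1.496 in Th1. Cd200r1, the receptor of CD200, was measured at -1.82 in Th1+TGFb and -2.21 in rested and was not well above background in Th1reg, where Cd200 was highest, nor in iTreg or Th1.

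Other inhibitory receptor genes went another way in rested cells. Of 14 tested of 15 listed (Pag1 was dim on every array), 10 were higher and 1 lower in rested than in Th1, with a median of 1.52. With spike-in scaling 2 were higher and 2 lower, with a median of 0.38. Cd96, a receptor of the TIGIT family, stood at 3.16 in Th1reg, 3.83 in Th1+TGFb, 2.95 in rested, 2.56 in iTreg and -0.81 in Th1, so that Th1 alone was low. In Th1reg against rested 2 of 14 were higher and 7 lower, with Vsir (VISTA) 6.33-fold lower, and with spike-in scaling 6 were higher and 2 lower. In Th1+TGFb against Th1, 7 of 13 were higher and none lower, among them Klrd1 (CD94, 10.1-fold) and its partner Klrc1 (NKG2A, 5.75-fold). In Th1reg against Th1+TGFb, 1 of 13 was higher (Cd72, 10.5-fold) and 5 were lower, with Klrd1 6.16-fold lower. In iTreg against Th1, 5 of 13 were higher and 3 lower, with Cd72 19.2-fold higher and Klrc1 22.3-fold lower. Over all genes, 17.5% were higher and 26.6% lower in rested against Th1 (619 and 8555 of 13228 genes with spike-in scaling). In Th1reg against rested these were 27.6% and 20.0% (9508 and 737 of 13331 genes). They were 11.3% and 7.76% in Th1+TGFb against Th1, 12.3% and 15.1% in Th1reg against Th1+TGFb, and 10.8% and 17.7% in iTreg against Th1.

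Activating receptors that share ligands or families with the 9 genes were measured for 10 of 12 listed (Havcr1 and Timd4 were dim on every array). In iTreg against Th1, 8 of 10 were lower and 2 higher, with a median of -1.98. In rested against Th1, 5 were lower and 2 higher, and with spike-in scaling 8 lower and 2 higher. There, Tnfrsf9 (4-1BB) was 144-fold lower and Slamf6 10.8-fold higher. In Th1reg against rested 3 were higher and 4 lower (6 and 1 with spike-in scaling), and Tnfrsf9 was 66.3-fold higher. Cd28, which competes with CTLA-4 for ligands, stood at 4.81 in Th1reg, 6.76 in Th1+TGFb, 6.17 in rested, 4.78 in iTreg and 6.70 in Th1. Cd226, which competes with TIGIT, was at least 8.57-fold higher in rested than in Th1, where Tigit was 2.97-fold lower. With spike-in scaling this bound for Cd226 was 1.96 log2 units. Over all genes, 17.7% were lower and 10.8% higher in iTreg against Th1, and 26.6% lower and 17.5% higher in rested against Th1. In Th1reg against rested, 20.0% were lower and 27.6% higher. With spike-in scaling, 8555 of 13228 genes were lower and 619 higher in rested against Th1. In Th1reg against rested, that scale had 737 of 13331 lower and 9508 higher.

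Genes of intracellular partners encode the phosphatases, kinases and trafficking proteins that the receptors use. All 18 were measured in every culture, and none was 2-fold apart in Th1+TGFb against Th1. In Th1reg against rested 6 were higher and none lower, and in rested against Th1 1 was higher and 5 lower. Under the 75th-percentile scale 27.6% of all genes were higher in the first comparison and 26.6% lower in the second. With the 75th percentile over detected probes as the scale, the list had 2 higher and 0 lower in rested against Th1. Over all 13228 genes 3649 were then higher and 1930 lower. With spike-in scaling the list had 0 higher and 15 lower there, beside 619 and 8555 of all genes. In Th1reg against rested, the detected-probe percentile gave 2 higher and 3 lower, beside 2124 and 3708 of all 13331 genes. Spike-in scaling gave 15 higher and 0 lower there, beside 9508 and 737 of all genes. Ptpn6, encoding the phosphatase SHP-1, stood at 5.83 in Th1reg, 4.95 in Th1+TGFb, 4.16 in rested, 4.67 in iTreg and 5.58 in Th1. Ptpn11, encoding SHP-2, stood at 5.33 in Th1reg, 4.67 in Th1+TGFb, 4.42 in rested, 5.08 in iTreg and 5.13 in Th1.

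Of 20 transcription factor genes known from chronic stimulation or from control of inhibitory receptors, Tox2 was dim on every array. In rested against Th1, 8 of 18 were lower and 4 higher, with Nr4a1, an early response gene of the antigen receptor, 155-fold lower and Irf4 28.7-fold lower. In Th1reg against rested 7 of 19 were higher and 5 lower, with Irf4 10.4-fold higher and Tcf7, a factor of resting and memory T cells, 30.2-fold lower. With spike-in scaling these counts became 12 lower and 2 higher in rested against Th1, and 10 higher and 2 lower in Th1reg against rested. In iTreg against Th1, 7 of 19 were lower and 5 higher. Prdm1 (Blimp-1) was at least 59.2-fold, Tbx21 (T-bet) 57.2-fold and Nfil3 26.4-fold lower there, and Foxp3 was at least 482-fold higher. Tox stood at 0.95 in Th1reg, -2.06 in Th1+TGFb, -0.20 in rested, 1.66 in iTreg and -1.30 in Th1, highest in iTreg, where none of the 9 genes was highest. Over all genes, 26.6% were lower and 17.5% higher in rested against Th1, and 20.0% lower and 27.6% higher in Th1reg against rested. In iTreg against Th1, 17.7% were lower and 10.8% higher. With spike-in scaling, 8555 of 13228 genes were lower and 619 higher in rested against Th1. In Th1reg against rested, that scale had 737 of 13331 lower and 9508 higher.

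**Figure D3:**
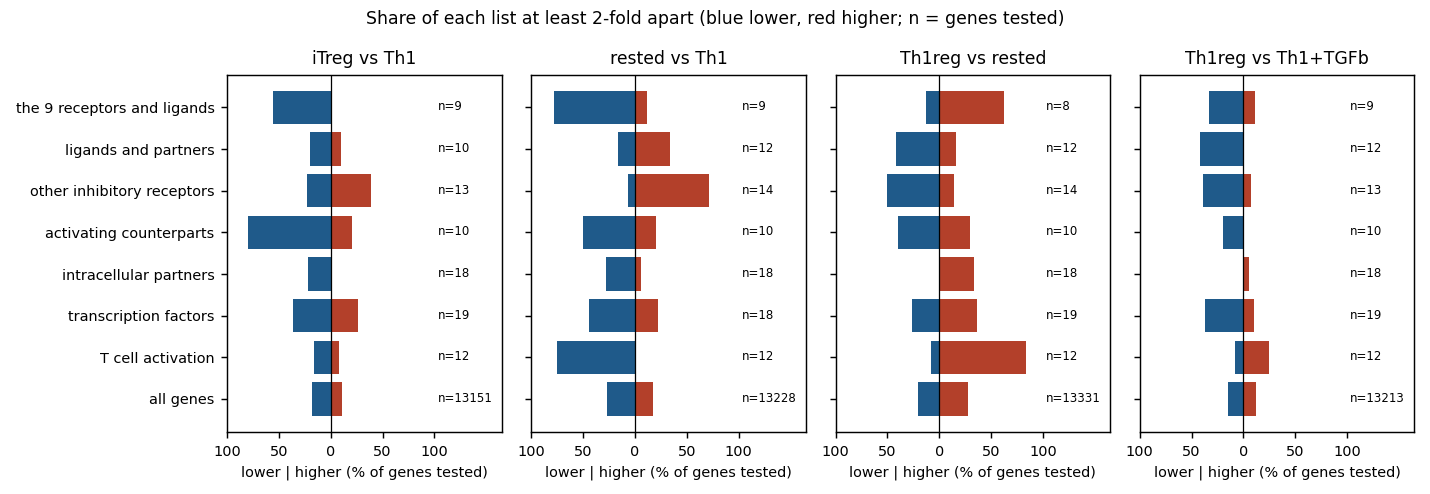
Percent of the genes tested in each list (rows) that were at least 2-fold lower (blue, left) or higher (red, right) in 4 comparisons, with the number tested beside each bar. The bottom row is all genes. In rested against Th1 the 9 genes and the activation list lie to the left, with 7 of 9 and 9 of 12 lower, and the other inhibitory receptors to the right, with 10 of 14 higher.

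The genes whose pattern over the 5 cultures was nearest to that of each member were found among 10289 genes well above background on all 5 arrays. The measure was the root mean square (RMS) difference of the scaled log2 signals after each gene had been centred on its own mean. With 5 points and so many genes, close matches are common for genes with a narrow span. Nearest to Pdcd1 were Neu3 (RMS difference 0.073), Mrps6 (0.11) and Pafah1b3 (0.11), and nearest to Ctla4 were Rnd1 (0.12), Aldoa (0.13) and Taf9b (0.13). Nearest to Cd274 were Ttc19 (0.10), Tmbim1 (0.12) and Ptgr1 (0.12). Nearest to Btla were Krt16, Rgs12 and Rassf1 (0.035 to 0.044), and to Cd160 Lgi4 (0.12), C1rl (0.22) and Mipol1 (0.27). The patterns with the widest span had looser matches: Syngr1 (0.42), Hmgcs1 (0.44) and Fabp5 (0.45) for Cd200, and Gstt1 (0.59), Gem (0.63) and Gcnt1 (0.92) for Lag3. None of the nearest genes was another of the 9, and Havcr2 and Tigit, dim on some arrays, were not ranked.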

How the data were processed

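Expression was measured in 5 cultures with 1 Agilent array each. Both the file headers and the submitters' processing notes name Agilent Feature Extraction 10.7.1.1 as the scanner software. Per the file headers, the deposited processed signal is a linear intensity from which the software had subtracted background, with no scaling between arrays. Control spots and the 109 to 142 outlier spots per array were left out of 62976 spots, and no spot was saturated. The 75th percentile was taken over the remaining spots of each array, where the signal was 306 in Th1reg, 198 in Th1+TGFb, 144 in rested, 271 in iTreg and 239 in Th1.

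Of 55670 probes, 28325 were named through RefSeq accessions in a GRCm38.p6 gene table. The array design is on build mm9, so the coordinates given are those of the RefSeq promoters only. Where a gene had several probes, the one brightest on average was taken. A signal not well above background was set to the higher of itself and the array's lowest signal well above background (scaled log2 -3.96 in Th1reg, -3.44 in Th1+TGFb, -3.23 in rested, -3.67 in iTreg and -3.66 in Th1). A comparison holds no gene that was dim on both of its arrays. Repeat spots of other probes had a median SD of 0.056 to 0.073 log2 units within an array, and 0.17 to 0.20 at signals under 100. The number of arrays limits the precision. The calculation of differences, bounds and counts was tested on simulated data.

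The members and the gene lists were chosen with earlier results of these data known. Every member is named in every comparison, and of each list a part of its up to 4 largest differences per comparison, beside partners of single receptors. The partner and factor genes given in every culture (Tnfrsf14, Lgals9, Pvr, Ptpn6, Ptpn11, Cd28 and Tox) and the marker genes named one by one include some outside that rule, chosen after their values were seen. The alternatives were 3 other scalings, normexp (offset 50) with quantile normalization in limma 3.58.1, the deposited value table, no floor, the mean over a gene's probes, and a 1.5-fold threshold. Normexp was run on the median signals, since the files hold no mean signal. Each column of the deposited value table, an intensity too, was the processed signal divided by 1 constant, within 0.01 log2 units for at least 99.7% of probes, so its scale and direction are known and no gene was centred. Its column medians were 0.0693 in Th1reg, 0.103 in Th1+TGFb, 0.123 in rested, 0.0925 in iTreg and 0.0762 in Th1. Calculations used Python 3.11.15, numpy 2.4.6, pandas 2.3.3 and R 4.3.3.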

Additional observations from a re-analysis of the deposited data

Results flagged for a closer look

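Cd160 went opposite ways when cells entered the iTreg medium. Th1+TGFb minus Th1 was 2.21 log2 units and Th1reg minus rested was -1.50, each at least 2-fold. The difference between the 2 was not tested, since each culture had 1 array. With normexp and quantile normalization Th1+TGFb minus Th1 was 0.92 and Th1reg minus rested was -0.24. With spike-in scaling Th1reg minus rested was -0.04. The spots were weak, with processed signals of 23.1 in Th1reg and 30.8 in rested. The lowest signals well above background on those arrays were 19.6 and 15.4.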

How the results depend on the processing

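Of 61 differences of the 9 genes, 32 were at least 2-fold, and 24 of those stayed so in the same direction under all 7 alternatives. The 61 include differences of Havcr2 and Tigit in which 1 of the 2 signals was not well above background. The deposited value table kept all 32, as did the mean over probes and no floor. The 75th percentile over detected probes kept 29, the median over them 30, spike-in scaling 30, and normexp with quantile normalization 24. Calls were also gained: 6 with spike-in scaling (Btla in 3 comparisons, Ctla4 in Th1reg against rested, Tigit in Th1reg against Th1+TGFb and Cd200 in Th1reg against Th1), 1 each with the percentile and the median over detected probes (Cd160 in Th1reg against iTreg) and 1 in the deposited table (Tigit in Th1reg against Th1+TGFb). One reversed: Cd160 in rested against Th1 was -0.055 with spike-in scaling. The number of members 2-fold apart moved by more than 1.5 times with normexp and quantile normalization, to 1 in Th1+TGFb against Th1, 2 in Th1reg against Th1+TGFb, 3 in Th1reg against iTreg and 1 in Th1reg against Th1. At 1.5-fold it was 9 in iTreg against Th1 and 6 in Th1reg against Th1.

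Scaling matters most in rested cells. With spike-in scaling the all-gene median moved by -1.14 (log2) in rested against Th1, 1.46 in Th1reg against rested and 0.65 in Th1reg against Th1+TGFb, and the 75th percentile over detected probes shifted the first 2 by 0.53 and -0.51. Of all genes 2-fold apart in rested against Th1, 39.7% were higher in rested, 65.4% with the detected-probe percentile and 6.75% with spike-in scaling. In Th1reg against rested these shares were 58.0%, 36.4% and 92.8%, in Th1reg against Th1+TGFb 44.8%, 27.4% and 83.6%, in Th1+TGFb against Th1 59.3%, 78.7% and 26.3%, in iTreg against Th1 37.8%, 64.5% and 59.4%, in Th1reg against iTreg 56.6%, 31.0% and 57.1%, and in Th1reg against Th1 42.1%, 43.4% and 66.0%. The number of all genes 2-fold apart was 5833 in rested against Th1 and 9174 with spike-in scaling, 6346 and 10245 in Th1reg against rested, and 3617 and 6520 in Th1reg against Th1+TGFb. Normexp gave 921 to 3828 over the 7 comparisons, against 1901 to 6346. With no floor, 4050 genes were apart in Th1+TGFb against Th1, in place of 2490, and 3298 in Th1reg against Th1, in place of 1901. Which scale is right was not tested. No other probe of a member could be tried, since each had 1, and no replicate could be left out. No paired analysis was possible because each culture had 1 array. Weak signal limits Cd160, Havcr2 and Tigit, whose lowest values lay near or below the background limit. It also limits Lag3 in rested and iTreg, with processed signals of 40.9 and 90.1.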
